A study of Homo sapiens with 4 samples.

Results

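The EGFR (ERBB) family was followed through 8 genes of an RNA-seq count table, chosen by name: the receptors EGFR, ERBB2 and ERBB3, the ligands AREG, EREG, HBEGF and TGFA, and ERRFI1, an intracellular inhibitor of the receptors. The choice was made with earlier results of these data known. All 8 were among the 40205 symbols of the table, and all 8 were among the 16120 genes with enough counts to be tested. The cells were A549, a human lung adenocarcinoma line, cultured in serum and harvested 24 h after siRNA transfection. In 2 libraries, Knockdown-670 and Knockdown-732, the siRNA targeted the long non-coding RNA SBF2-AS1, and in 2 libraries, NC-1 and NC-2, it was a negative control; transfection, cell line and harvest time were common to all 4. The labels give no meaning for the library numbers and do not state separate cultures, so every p-value here rests on the spread of 2 libraries a group, which could be technical.

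ERBB receptors are membrane tyrosine kinases that pair with themselves or with each other when a ligand binds, and pass the signal to the RAS-ERK and PI3K-AKT relays. The ligands are made as membrane-bound precursors and are released by proteases of the ADAM family. ERRFI1 is induced by receptor signalling and binds the kinase domain of the active receptor, which closes a feedback loop. In lung adenocarcinoma EGFR is a well-known oncogene and drug target.

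Before any correction for transcript GC content and length, EGFR rose about as far as AREG fell, and the other members moved less. With siRNA to SBF2-AS1, EGFR rose 1.95-fold, HBEGF 1.75-fold and ERBB2 1.19-fold (a direction that turned when transcript GC content and length were corrected for), AREG fell 1.98-fold and ERBB3 1.35-fold, and EREG, TGFA and ERRFI1 did not pass the test. These 5 calls of 8 (3 higher, 2 lower, edgeR quasi-likelihood test with Benjamini-Hochberg adjustment at 0.05) stand against a background in which 46.3% of all tested genes were called, 23.5% higher and 22.8% lower. The background share was larger among the 12128 genes with at least 5 CPM in at least 2 libraries, which include all 8 members. Of those, 3410 were called higher and 3381 lower. The median log2 fold change of the 8 was 0.13, against -0.0024 over all tested genes. With the correction for GC content and length, chosen after seeing the data, HBEGF (log2 0.797) stood level with EGFR (0.785) and AREG (-0.781). EREG then passed as higher (log2 0.374, edgeR adjusted p = 0.000132). In bulk RNA, fewer cells of a type and less RNA per cell cannot be told apart.

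The promoters of 4 of these genes are shown because they belong to the genes that moved most (AREG, EGFR, HBEGF) and to EREG. EREG is the neighbour of AREG on the same chromosome and did not pass the test before the correction for GC content and length. Each is the 250 bases before the annotated start on the gene's own strand, from RefSeq on GRCh38.p14: chr4:74444886-74445135 on the + strand for AREG, chr4:74364895-74365144 (+) for EREG, chr7:55018767-55019016 (+) for EGFR and chr5:140346604-140346853 (-) for HBEGF. Capitals mark any match, on either strand, to the motifs searched: CRE (TGACGTCA), AP-1 (TGANTCA), SP1 (GGGCGG), ISRE (GAAANNGAA), TEAD (GGAATG) and HRE (ACGTG).
AREG: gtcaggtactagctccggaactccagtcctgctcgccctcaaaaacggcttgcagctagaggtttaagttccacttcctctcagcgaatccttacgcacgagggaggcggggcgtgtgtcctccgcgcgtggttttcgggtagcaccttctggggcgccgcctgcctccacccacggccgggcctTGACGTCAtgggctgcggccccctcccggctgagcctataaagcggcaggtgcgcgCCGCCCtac
EREG: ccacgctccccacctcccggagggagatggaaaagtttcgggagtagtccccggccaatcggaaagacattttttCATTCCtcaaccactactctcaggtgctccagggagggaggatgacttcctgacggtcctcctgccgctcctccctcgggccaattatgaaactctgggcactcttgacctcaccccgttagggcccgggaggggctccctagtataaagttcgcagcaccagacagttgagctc
EGFR: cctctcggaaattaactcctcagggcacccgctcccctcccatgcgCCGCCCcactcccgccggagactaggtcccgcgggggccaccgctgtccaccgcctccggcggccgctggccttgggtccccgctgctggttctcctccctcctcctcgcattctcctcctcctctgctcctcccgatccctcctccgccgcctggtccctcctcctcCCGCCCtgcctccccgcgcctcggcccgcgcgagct
HBEGF: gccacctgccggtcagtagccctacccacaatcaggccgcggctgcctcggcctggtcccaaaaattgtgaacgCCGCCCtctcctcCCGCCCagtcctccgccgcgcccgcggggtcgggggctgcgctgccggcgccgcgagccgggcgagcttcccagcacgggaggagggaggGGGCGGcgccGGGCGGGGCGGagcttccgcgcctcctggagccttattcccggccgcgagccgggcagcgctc

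The AREG window held a full CRE palindrome, the letters bound by CREB-type factors, starting 65 bases before the gene. AREG was the only member with one among the 7 matched by symbol, and 1.65% of 35116 promoters of the same length held it. The EREG window had no CRE and 1 TEAD match, which 11.9% of promoters held. SP1 letters, all G and C, occurred in 5 of the 7 members (EGFR, AREG, HBEGF, TGFA and ERRFI1), against 42.6% of promoters. HBEGF had 5 matches, of which the last 2 share a base. These 5 windows had a GC content of 65.2% (AREG) to 76.4% (HBEGF), against a median of 58% over all promoters. The 42.6% was not matched for GC content. Of the members without SP1 letters, ERBB2 was at 65.6% and EREG at 58%. None of the 7 had ISRE or HRE letters in this window, where 6.88% and 18.5% of promoters did, and of the 7 only ERBB2 had AP-1 letters (6.57%). ERBB3 had no matched promoter and was not searched. For a member with more than 1 RefSeq start, only the most upstream was searched, while the shares over all promoters count every entry. The ERBB2 window (39687844 to 39688093) ran past the GENCODE start of the gene at 39687914. Other starts of the members were not searched.

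**Figure D1:**
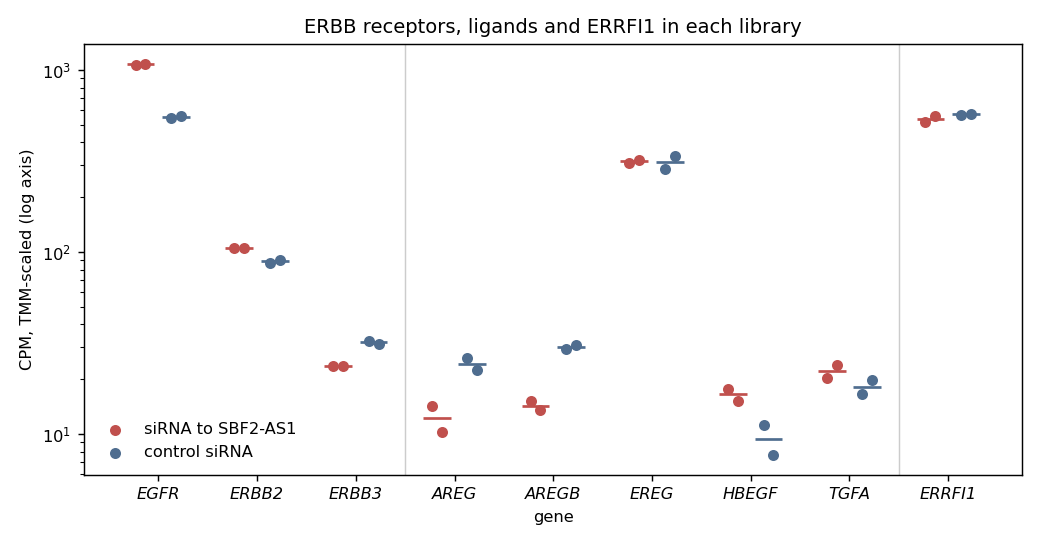
CPM (counts over library size with TMM adjustment, log axis) of each gene in each library, with siRNA to SBF2-AS1 left of control siRNA; dots are libraries, bars are means, and grey lines part receptors, ligands and ERRFI1. The 2 EGFR values with siRNA to SBF2-AS1 (1069 and 1085 CPM) lie above both control values (545 and 560 CPM), and the knockdown values of AREG and its copy AREGB lie below their controls.

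The libraries held 12149767 and 12894529 counts in Knockdown-670 and Knockdown-732, and 12701132 and 12938143 in NC-1 and NC-2. SBF2-AS1 itself had 15 and 18 counts in the knockdown libraries against 57 and 79 in the controls, a log2 fold change of -1.94 ± 0.30 (SE; adjusted p = 3.19e-05 in edgeR). Of the epithelial markers the keratins KRT8, KRT18 and KRT19 and the adhesion molecule CDH1 were abundant, while the adhesion molecule EPCAM had only 73 and 65 counts in Knockdown-670 and Knockdown-732, against 118 and 100 in NC-1 and NC-2. The 5 epithelial markers summed to 2570 and 2450 CPM (by library size) in Knockdown-670 and Knockdown-732, against 3920 and 4030 CPM in NC-1 and NC-2, but the list did not move as one. KRT18 (16503 and 16127 counts against 30745 and 32709), KRT8 (11647 and 12115 against 16690 and 16943) and EPCAM fell, KRT19 rose (1533 and 1756 against 874 and 815), and CDH1 did not pass (1417 and 1571 against 1335 and 1620; edgeR adjusted p = 0.273). The part of these markers in the results was not tested. The 5 alveolar markers summed to 2.06 and 2.09 CPM against 1.89 and 2.55 CPM, with SFTPB at 0 in every library, so the surfactant identity of the alveolus was near absent in both groups. Markers of other cell types summed to at most 18.3 CPM a list in any library, and the most counted immune one, CD14 (102 and 122 counts against 156 and 131), was at about the level of EPCAM. The 6 immune markers summed to 14.4 and 14.7 CPM against 18.3 and 15 CPM, with HLA-DRA and CD3E at 0, the 5 endothelial ones to 1.32 and 2.33 against 3.07 and 3.25 CPM, the 6 fibroblast ones to 13.4 and 10.2 against 10.2 and 9.89 CPM, and the 4 erythroid ones to 0.0823 and 0 against 0.157 and 0.0773 CPM, with HBA2 and ALAS2 at 0.

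Among the receptors, EGFR (ENSG00000146648.17; GRCh38 chromosome 7, 55019021 to 55211628, + strand, 28 exons in its principal transcript) had 12591 and 13771 counts in Knockdown-670 and Knockdown-732, against 7043 and 7405 in NC-1 and NC-2. Scaled to library size with a TMM adjustment for composition (CPM), these were 1069 and 1085 CPM against 545 and 560 CPM. The groups did not overlap, and the gap between them was many times the gap within either. The means were 1077 ± 11.3 CPM with siRNA to SBF2-AS1 and 552 ± 10.7 CPM with control siRNA (SD, n = 2 each). On the log2 scale the difference was 0.96 ± 0.07 (SE; adjusted p = 1.54e-09 in edgeR). Of all tested genes, 93.5% had a lower log2 fold change than EGFR. EGFR-AS1, annotated on the opposite strand within EGFR, was listed at 0 counts in all 4 libraries.

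ERBB2, the receptor that binds no ligand of its own and serves as partner to the others, had 105 and 106 CPM in Knockdown-670 and Knockdown-732, against 86.7 and 90.5 CPM in NC-1 and NC-2. The groups did not overlap, as was so for 72.6% of all tested genes. The log2 fold change was 0.25 ± 0.07 (SE; adjusted p = 0.00966 in edgeR). This call rested on the processing. With offsets for transcript GC content and length, fitted in each library and chosen after seeing the data, it turned to -0.09 (edgeR adjusted p = 0.334), and it did not pass in DESeq2 (adjusted p = 0.0532), with scaling by library size only (0.0508), without NC-1 (0.0648) or without Knockdown-732 (0.0588), within a range of 0.00655 to 0.533 over 14 alternatives. ERBB2 (chromosome 17, 39687914 to 39730426, + strand) overlaps PGAP3 and MIEN1 on the opposite strand. MIEN1 had 335 and 364 counts in the knockdown libraries against 410 and 475 in the controls, and PGAP3 had 232 and 206 against 239 and 241. Use of strand in the counting is not known, and reads of these genes may have been exchanged.

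ERBB3, a receptor with little kinase activity that signals through its partners, had 23.7 and 23.5 CPM with siRNA to SBF2-AS1 and 32.5 and 31.2 CPM with control siRNA. Both knockdown values lay below both controls. The log2 fold change was -0.43 ± 0.11 (SE; adjusted p = 0.00343 in edgeR), and -0.68 with the GC and length offsets. Tested against a fold change of 1.2, which 29% of all tested genes passed, ERBB3 did not pass (edgeR glmTreat adjusted p = 0.0661; the range over 14 alternatives was 8.3e-06 to 0.0661). ERBB4 was near the floor, with 2 and 3 counts in Knockdown-670 and Knockdown-732 and 1 and 0 in NC-1 and NC-2, and was not tested.

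The balance of the receptors differed between the groups. Per kilobase of principal transcript, EGFR made up 80.1 and 80.2% of the summed level of the 3 receptors in Knockdown-670 and Knockdown-732, against 69.3% in each control. ERBB2 made up 17 and 16.9% against 23.8 and 24.2%. Its own mean level did not fall, at 23.2 CPM per kilobase with siRNA to SBF2-AS1 and 19.5 with control siRNA, so its smaller share goes with the larger sum. ERBB3 made up 2.94 and 2.88% against 6.87 and 6.42%. The sum itself was 136 and 138 CPM per kilobase against 80.03 and 82.2. These shares and sums were taken without the correction for GC content and length.

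Among the ligands AREG (amphiregulin), a low-affinity EGFR ligand common in epithelia, had 14.3 and 10.2 CPM in Knockdown-670 and Knockdown-732, against 25.98 and 22.5 CPM in NC-1 and NC-2. Both knockdown libraries were below both controls, with Knockdown-732 the lower. The log2 fold change was -0.99 ± 0.15 (SE; adjusted p = 4.47e-05 in edgeR), and 5.22% of the tested genes had a lower one. The table also listed AREGB, a symbol that RefSeq now gives as a synonym of AREG, so the reads of near-identical copies may have been split between the entries. AREGB had 178 and 171 counts against 380 and 407, a log2 fold change of -1.07 ± 0.13 (SE; adjusted p = 1.41e-06 in edgeR). AREG took 48.6% (95% Clopper-Pearson interval 43.2 to 54) and 43.2% (37.5 to 49) of the reads of the pair in Knockdown-670 and Knockdown-732, against 46.9% (43.2 to 50.7) and 42.3% (38.6 to 46) in NC-1 and NC-2; these intervals cover counting error only, and the shares of the groups overlapped. Summed, the pair had 29.4 and 23.7 CPM against 55.4 and 53.3 CPM, means of 26.5 ± 4.004 and 54.3 ± 1.47 CPM (SD, n = 2 each). The sum had a log2 fold change of -1.03 ± 0.11 (SE; adjusted p = 2.8e-07 in edgeR), so the fall did not depend on how the reads were divided.

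EREG (epiregulin), which binds EGFR and ERBB4, lies beside AREG: on GRCh38 chromosome 4, EREG runs from 74365143 to 74388751 and AREG from 74445134 to 74455009, both on the + strand, with 56.4 kb between them. EREG had 309 and 321 CPM with siRNA to SBF2-AS1 and 286 and 337 CPM with control siRNA, and the knockdown values lay between the controls. Its log2 fold change was 0.02 ± 0.08 (SE; adjusted p = 0.868 in edgeR). With the GC and length offsets EREG stood at 0.37 and passed (edgeR adjusted p = 0.000132; range 0.000132 to 1 over 14 alternatives). The offset that was removed was -0.36 for EREG, whose transcript has a GC content of 36.1%, and -0.21 for AREG, at 45.3%. AREG stood at -0.78 in that fit and passed. The cluster holds 2 further ligands, and neither was abundant. EPGN (epigen), 49.8 kb on the other side of EREG, had 6 and 1 counts against 0 and 0, where 3 counts are the limit that a count of 0 allows, and was not tested. BTC (betacellulin), 289.7 kb beyond AREG, had 27 and 26 counts against 31 and 36 (log2 fold change -0.24 ± 0.31 SE, adjusted p = 0.555 in edgeR).

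HBEGF, a heparin-binding ligand of EGFR and ERBB4 (chromosome 5, 140332843 to 140346631, - strand), had 17.7 and 15.2 CPM in Knockdown-670 and Knockdown-732, against 11.2 and 7.63 CPM in NC-1 and NC-2. The groups did not overlap, although the controls differed between themselves, with 145 and 101 counts; the log2 fold change was 1.10 without NC-1 and 0.55 without NC-2, and passed in both. The means were 16.5 ± 1.80 and 9.42 ± 2.53 CPM (SD, n = 2 each), and the log2 fold change was 0.81 ± 0.17 (SE; adjusted p = 0.00101 in edgeR). TGFA, another ligand of EGFR, had 20.3 and 23.9 CPM against 16.5 and 19.7 CPM. The lower knockdown value stood just above the higher control. Its log2 fold change of 0.29 (SE 0.14) did not pass (edgeR adjusted p = 0.0961), but it did without NC-2 (0.0487) and without Knockdown-670 (0.0389), within a range of 0.0389 to 0.495 over 14 alternatives.

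The neuregulins are ligands of ERBB4, and some of them also of ERBB3. NRG1 was the most abundant of them, with 152 and 143 CPM in Knockdown-670 and Knockdown-732 and 155 and 151 CPM in NC-1 and NC-2, and the groups overlapped (log2 fold change -0.06 ± 0.07 SE, adjusted p = 0.515 in edgeR). NRG2 (22 and 21 counts against 24 and 33) and NRG4 (11 and 14 against 9 and 8) did not pass, at edgeR adjusted p of 0.49 and 0.294. EGF, for which the receptor is named, had 6 and 5 counts against 7 and 11 and was not tested. NRG3 had 0 counts in every library, which allows up to 0.255 and 0.236 CPM in the knockdown libraries and 0.232 and 0.227 CPM in the controls.

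ERRFI1 (MIG6), the feedback inhibitor, was among the more abundant members, with 519 and 556 CPM in Knockdown-670 and Knockdown-732, against 569 and 573 CPM in NC-1 and NC-2. Both knockdown values were below both controls, and Knockdown-732 was nearer to NC-1 than to Knockdown-670. The log2 fold change was -0.09 ± 0.07 (SE; adjusted p = 0.302 in edgeR), and 0.08 with the GC and length offsets (edgeR adjusted p = 0.315). A p that misses the threshold does not show that ERRFI1 was the same in both groups. Its mean differed by -5.94%, while that of EGFR differed by 95.1%.

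**Figure D2:**
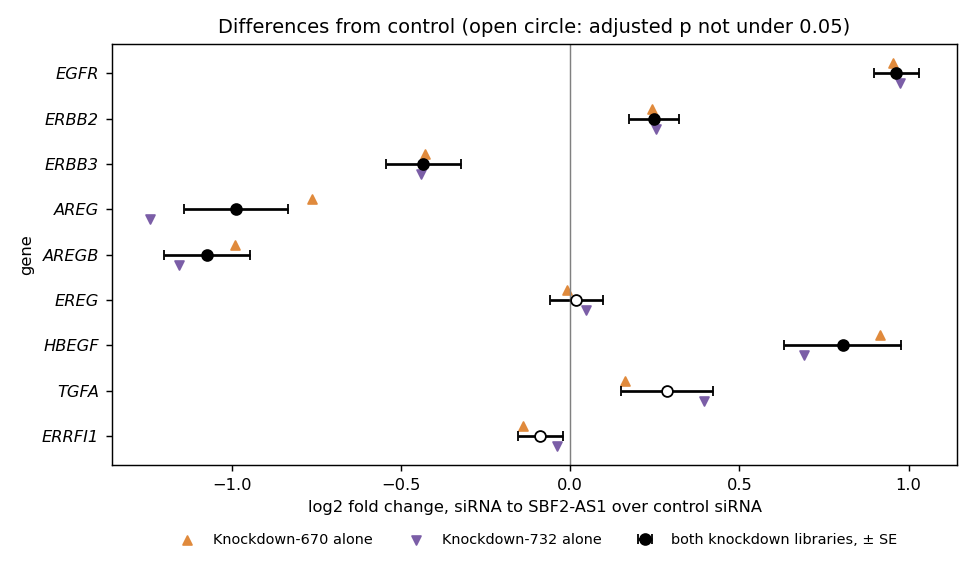
Log2 fold change of siRNA to SBF2-AS1 over control siRNA for each gene, with ± SE for both knockdown libraries together (circles, open where the adjusted p was not under 0.05) and for Knockdown-670 and Knockdown-732 alone (triangles). The 2 libraries gave nearly the same EGFR value (0.95 and 0.97), and AREG differed most between them (-0.76 and -1.24). AREGB, which may share its reads with AREG, differed less (-0.99 and -1.16).

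Each knockdown library was also set against the controls on its own, in a fit whose spread comes from the control pair only, so that the lone library is assumed to vary as the controls do. Both libraries carried the change in EGFR (log2 0.95 in Knockdown-670 and 0.97 in Knockdown-732), ERBB2 (0.24 and 0.25), ERBB3 (-0.43 and -0.44), AREG (-0.76 and -1.24) and HBEGF (0.91 and 0.69), and all 10 of these passed at an edgeR adjusted p of 0.05. The background was 42% of genes called in Knockdown-670 and 40.2% in Knockdown-732. TGFA passed in Knockdown-732 (log2 0.40, edgeR adjusted p = 0.0415) and not in Knockdown-670 (log2 0.16, edgeR adjusted p = 0.472). With 1 library on each side, no test of the difference between Knockdown-732 and Knockdown-670 is given. Among the members the gap was widest for AREG, at -0.48 on the log2 scale for Knockdown-732 over Knockdown-670. It was -0.17 for AREGB, so the gap of AREG may in part come from how reads were divided between these entries, which was not tested.

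Levels of different genes were compared per kilobase of principal transcript. With siRNA to SBF2-AS1 the order was ERRFI1 (173 CPM per kilobase), EGFR (109.7), EREG (68.3), ERBB2 (23.2), AREG (9.88), HBEGF (6.91), TGFA (5.12) and ERBB3 (3.99), and no neighbours in that order overlapped in their library values. With control siRNA the order was ERRFI1 (184), EREG (67.4), EGFR (56.2), AREG (19.6), ERBB2 (19.5), ERBB3 (5.39), TGFA (4.21) and HBEGF (3.95). There AREG and ERBB2 overlapped, as did TGFA and HBEGF. EGFR and EREG thus stood in opposite order in the groups, and ERBB3 was the scarcest member in the knockdown libraries and HBEGF, level with TGFA, in the controls. AREG without its copy AREGB is understated on this scale.

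The genes whose pattern over the 4 libraries was nearest to that of EGFR, by Euclidean distance of log2 CPM deviations from the control mean among 10179 other genes, were ANKRD33B (distance 0.0426), HMGA1 (0.0431) and WNT7B (0.0447), a chromatin protein and a WNT ligand in the case of the last 2. For AREG they were the pseudogene H2AFVP1 (0.121), PHF19, a polycomb component (0.157), and BMP4, a ligand of the BMP pathway (0.182). AREGB, at a distance of 0.304, came in place 40 for AREG. With 4 libraries, this measure mostly sorts genes by the size of the fold change.

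**Figure D3:**
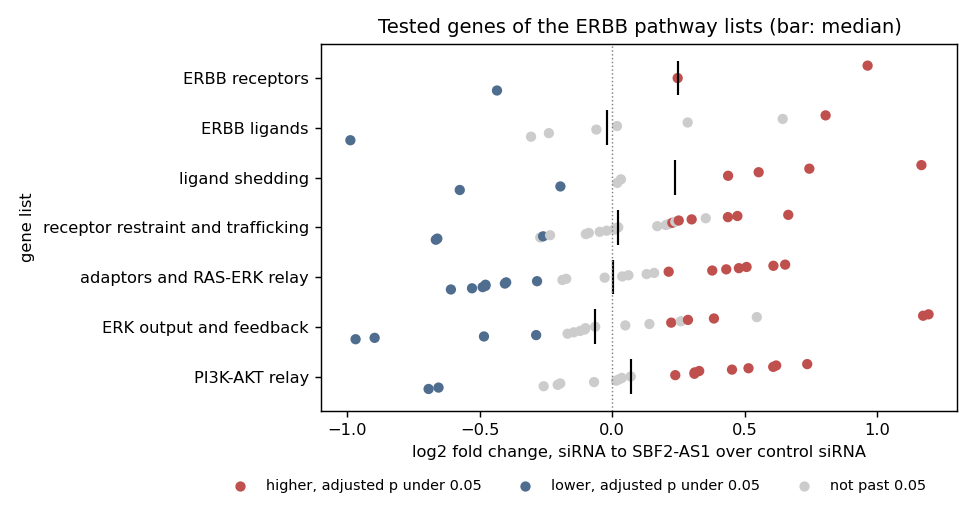
Log2 fold change of each tested gene in the ERBB pathway lists (x axis), by list (y axis), coloured by direction where the adjusted p was under 0.05, with a bar at the median. The medians lie between -0.06 and 0.25, and each list holds genes called in both directions.

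The counts in the lists that follow stand against the 46.3% of all tested genes that were called (23.5% higher, 22.8% lower), and against 29% for a fold change of 1.2 and 45.2% with the GC and length offsets. The background was larger among genes with at least 5 CPM in at least 2 libraries (3410 higher and 3381 lower of 12128). The lists were chosen with earlier results of these data known, so their shares are descriptive and not independent support. Genes that release the ligands were called in 6 of 8 cases (75%, against 46.3% of all tested genes), 4 higher and 2 lower, with a median log2 fold change of 0.24. FRMD8, which stabilises the sheddase complex on the cell surface, had 79.8 ± 5.49 CPM with siRNA to SBF2-AS1 and 35.5 ± 0.83 CPM with control siRNA (SD, n = 2 each; log2 1.17, edgeR adjusted p = 4.46e-09). The inactive rhomboid RHBDF2, a cofactor of ADAM17, rose by 0.74 and its relative RHBDF1 by 0.55 on the log2 scale, or by 0.39 and 0.25 with the GC and length offsets, and the protease ADAM9 rose by 0.44, or 0.71 with the offsets. ADAM17, the main sheddase of AREG, HBEGF and TGFA, had 144 ± 3.41 CPM against 141 ± 2.33 CPM (SD, n = 2 each; log2 0.03, edgeR adjusted p = 0.726), and ADAM10, which releases other ligands, was at 0.02 (edgeR adjusted p = 0.832). With the GC and length offsets both passed as higher, ADAM17 at 0.24 (edgeR adjusted p = 0.00363) and ADAM10 at 0.16 (0.0395), which made 6 rises of 8; neither passed in any of the other 13 alternatives. The called falls were ADAM12 (log2 -0.58) and NRD1 (-0.20). Both lost the call in DESeq2, without NC-1 and without Knockdown-670, and NRD1 also against a fold change of 1.2 and with the offsets (-0.15, edgeR adjusted p = 0.0656).

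Of 23 tested genes that restrain the receptors or sort them inside the cell, ERRFI1 included, 6 rose and 3 fell (39.1% called, against 46.3% of all tested genes; median log2 fold change 0.02), a share no higher than the background. SH3KBP1, an adaptor that links the ubiquitin ligase CBL to endocytosis, rose by 0.66 and RAB7A, a GTPase of late endosomes, by 0.44 on the log2 scale. PTPN2, a phosphatase that acts on EGFR, fell by 0.67 and STAM2, a sorting protein of early endosomes, fell by 0.66, or by 0.39 and 0.36 with the GC and length offsets. The 6 rises were 3 in DESeq2 and without NC-1 and 2 against a fold change of 1.2, and the 3 falls were 5 with scaling by library size only.

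The adaptors and the RAS-ERK relay had 7 higher and 8 lower genes among 22 tested (68.2% called, against 46.3% of all tested genes; median 0.005). The kinases that phosphorylate ERK rose, MAP2K2 by 0.65 (0.39 with the GC and length offsets) and MAP2K1 by 0.43 on the log2 scale. The RAS inhibitor NF1 fell by 0.49. Against a fold change of 1.2 the list had 4 higher and 5 lower, where 29% of all tested genes were called.

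ERK output and feedback genes were called in 9 of 19 cases, 5 higher and 4 lower (median -0.06), and this 47.4% was close to the 46.3% of all tested genes. DUSP5, a nuclear ERK phosphatase, had 454 ± 6.26 CPM against 198 ± 13.5 CPM (SD, n = 2 each; log2 1.19, edgeR adjusted p = 1.72e-10), and the AP-1 subunit FOSL1 had 126 ± 0.49 CPM against 56.0 ± 1.06 CPM (log2 1.17, edgeR adjusted p = 4.94e-10). CCND1, the G1 cyclin, fell by 0.48 and the ETS factor ETV1 by 0.97 on the log2 scale. Against a fold change of 1.2 the rises were 3.

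In the PI3K-AKT relay the 19 genes tested included 9 that rose and 2 that fell (57.9% called, against 46.3% of all tested genes, and 23.5% of them higher and 22.8% lower; median 0.07), but with the GC and length offsets these were 5 and 6, so the balance of this list rested on that choice. It was also 5 higher without NC-1 and 4 higher against a fold change of 1.2. PIK3CD, a catalytic subunit, rose by 0.74 on the log2 scale (0.37 with the offsets), and TSC1 rose by 0.62 (0.42 with the offsets). Its partner TSC2 rose by 0.61, but stood at 0.13 with the offsets and did not pass (edgeR adjusted p = 0.121); it passed in the other 13 alternatives.

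**Figure D4:**
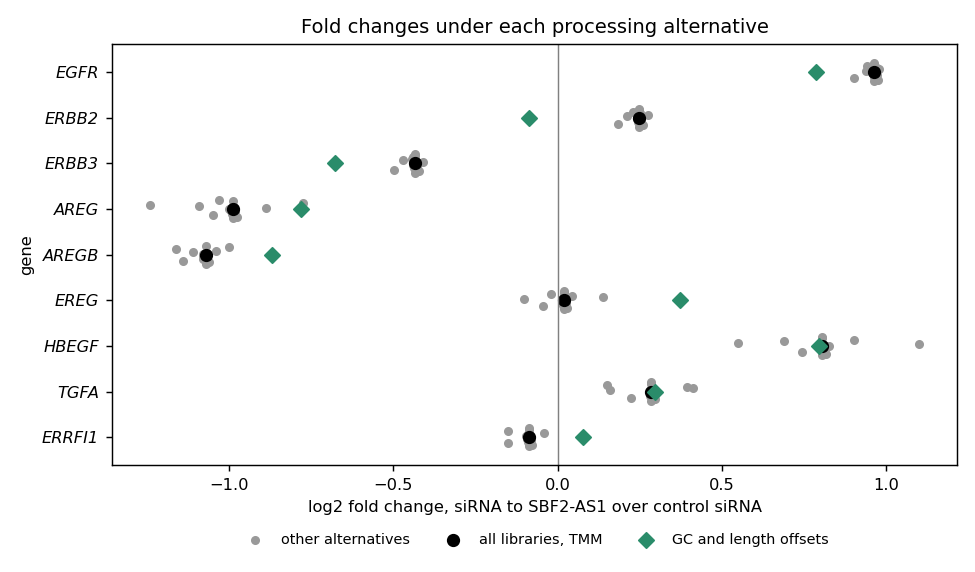
Log2 fold change of each gene (x axis) with all libraries and TMM scaling (black), with GC and length offsets (green diamonds) and under the other alternatives (grey). EGFR, ERBB3, AREG, AREGB, HBEGF and TGFA stay on one side of 0 under all of them, and ERBB2, EREG and ERRFI1 do not.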

How the data were processed

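The authors deposited raw counts per gene symbol for 4 libraries, and these counts were used as they stood. Per the labels' protocols, total RNA of high integrity was sequenced on the Ion Proton; per the submitters' processing notes the build was GRCh37. No source used here names the aligner, the counter, the annotation or whether strand was used; these are not given. Groups came from the sample titles.

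All 40205 symbols entered edgeR 4.0.16 (R 4.3.3) with filterByExpr, TMM, robust quasi-likelihood fits and Benjamini-Hochberg adjustment at 0.05 over 16120 tested genes; SE is the log2 fold change over the root of F. CPM is TMM-scaled unless stated. The common coefficient of biological variation was 6.64%. Replicates were compared by chi-square per gene, 3.42 within the knockdown pair and 3.72 within the controls, so no library was a copy. In a simulation on 15856 genes, 200 of them changed, the test found 64.2% of 1.5-fold and 86.6% of 2-fold changes. Of its 187 calls 12.8% were false, more than the nominal share. The changed share was far smaller than the 46.3% of genes called in the data, so these rates may not carry over.

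The genes were joined by symbol to GENCODE v29 (GRCh38, another build than the authors'); 28572 matched directly, 1296 by a RefSeq synonym and 10337 not at all. Levels per kilobase use the longest APPRIS principal transcript. Offsets for GC content and length came from per-library loess fits on the 14705 tested genes (91.2%) with an annotated transcript. Members and lists were chosen with earlier results of these data known. Named genes were all members, all other ERBB receptors and ligands, SBF2-AS1, the 4 called genes of smallest p in each list and the 3 nearest in pattern to the largest rise and fall; AREGB, ADAM17, ADAM10, ADAM12, NRD1, MIEN1, PGAP3 and EGFR-AS1 were named after their values were seen. Some genes that this rule takes are not reported here. Alternatives were other scalings (DESeq2 size factors, upper quartile, library size only), no filter and 5 CPM in 2 libraries, DESeq2 1.42.0, limma-voom (limma 3.58.1), each library left out, and glmTreat against 1.2-fold; the AREG and AREGB sum and the offsets were chosen after seeing the data.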

Additional observations from a re-analysis of the deposited data

How the results depend on the processing

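Over 14 alternatives EGFR (log2 0.785 to 0.979), AREG (-1.24 to -0.776) and HBEGF (0.549 to 1.10) kept their direction and passed in all. ERBB3 kept its direction in all and passed in all but glmTreat. ERBB2 reversed to -0.0861 with the GC and length offsets and lost its call in 5 more alternatives, glmTreat (adjusted p = 0.533) among them. ERRFI1, not called in any, reversed to 0.078 with the offsets. EREG reversed to -0.0448 with library size only, to -0.101 without NC-1 and to -0.0213 without Knockdown-732, none of these past the threshold (-0.101 to 0.138 with each library left out). Its largest change came with the GC and length offsets, where it rose to 0.374 and passed (edgeR adjusted p = 0.000132). TGFA kept its direction in all (log2 0.15 to 0.413), but its call varied with the library left out. Members called were 2 to 4 higher and 1 to 2 lower; against a fold change of 1.2 there was 1 lower member, AREG, in place of 2, and 2451 genes were higher and 2229 lower in place of 3785 and 3678. A stricter null explains the smaller counts there; the cause of the other changes was not tested. No paired analysis was possible because the titles of the groups share no replicate numbers. Depth limits EPGN, ERBB4, EGF and NRG3, each with at most 11 counts in a library.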
